A study of Sus scrofa with 15 samples.

Results

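IPEC-J2 is a non-transformed epithelial cell line from the jejunum of a newborn piglet, and its expression profile was described here in the 2 groups of control libraries of an RNA-seq series. The groups were chosen by their labels alone. Lv3NC is the lentiviral control for knockdown and Lv20NC the lentiviral control for overexpression, each with 3 libraries, so 6 of the 15 libraries of the series are controls. The other 9 libraries are the knockdown groups Lv133KD and Lv143KD, which share a table with Lv3NC, and the overexpression group OV143, which shares a table with Lv20NC, each with 3 libraries. For Lv143KD the design text and the label name different microRNAs, so the target of that group is in doubt and it is called by its label only. All 15 were made from total RNA of IPEC-J2 cells carrying a lentivirus, and no library without a vector was analysed here. The inserts of Lv3NC and Lv20NC, the time after transduction and the cultures behind each library are not stated in the labels, so the 3 libraries of a group may be technical repeats and p-values measure only their spread.

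A control lentivirus carries the vector without the sequence aimed at the microRNA under study, and cells that received it are the reference for the effects of infection and integration. Intestinal epithelial cells form a sheet sealed by claudins and occludin, absorb sugars and amino acids across a brush border, and sense microbes through cytokines, defensins, mucins and MHC molecules, so these groups were read in the baseline.

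There are 19000 genes in the knockdown table, 17001 genes in the overexpression table and 16804 in both. The deposited FPKM values (fragments per unit of gene length and library size) were normalised separately in each table. They were put on one scale by median-of-ratios factors over 14204 genes above 0 in all 6 control libraries. The factors lay between 0.953 and 1.035, and values below are scaled FPKM unless a log2 difference is named. Read depth is unknown, since no counts were used. The Lv3NC libraries summed to 488766, 519213 and 520630 deposited FPKM and the Lv20NC libraries to 519374, 558042 and 518578. Between 11277 and 11406 shared genes reached 1 scaled FPKM in an Lv3NC library and between 11315 and 11340 in an Lv20NC library. Vector, table, and any difference of batch, annotation or processing between the tables split these libraries in the same way and cannot be told apart, so no p-value is given across the tables.

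Among genes listed in both tables, the most abundant transcripts were those of translation, cytoskeleton and iron storage, in both controls. TMSB10, which binds actin monomers, stood first at 5773 ± 671 (SD, n = 3) in Lv3NC and 7226 ± 458 (SD, n = 3) in Lv20NC. The ribosomal gene RPS20 followed at 5741 ± 862 (SD, n = 3) and 5688 ± 624 (SD, n = 3), and the actin gene ACTG1 at 5216 ± 853 (SD, n = 3) and 5162 ± 179 (SD, n = 3). FTL, the ferritin light chain, averaged 4781 and 4876, and EEF1A1, the elongation factor that brings tRNA to the ribosome, came next. Of the 25 genes with the highest median, 15 encoded ribosomal proteins. S100A6, S100A2, TPT1, GAPDH and FTH1 were among the others, as was SPP1 (osteopontin), which differed between the controls and is described below. The 50 most abundant shared genes held between 21.4% and 24.7% of the FPKM in an Lv3NC library and between 23.7% and 25.2% in an Lv20NC library. Ribosomal proteins have near-identical processed copies in the genome, so their single values are uncertain.

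Epithelial identity was clear in every control library. KRT8, a simple epithelial keratin, was at 802, 871 and 581 in Lv3NC and at 656, 743 and 695 in Lv20NC, and the groups overlapped. EPCAM, the epithelial adhesion molecule, was at 330, 297 and 377 in Lv3NC and at 469, 554 and 546 in Lv20NC, where all 3 libraries were higher. CDH1 (E-cadherin) averaged 184 ± 2.62 (SD, n = 3) and 243 ± 10.3 (SD, n = 3). KRT18, KRT19, CLDN4, CLDN7 and ESRP1 were also present in both. GRHL2, a regulator of epithelial genes, was low, between 0.163 and 0.199 in Lv3NC and between 0.913 and 1.09 in Lv20NC. Of 15 epithelial markers tested none differed 2-fold without overlap, beside 4.20% of all genes tested.

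Markers of the differentiated intestinal lineages were mixed, with several defining markers low or near 0 and other members of the same lists well above 1. VIL1, the bundler of brush border actin, was at 1.78 ± 0.474 (SD, n = 3) in Lv3NC and 3.52 ± 0.461 (SD, n = 3) in Lv20NC. SI, the sucrase-isomaltase of mature enterocytes, was at 3.09 ± 0.360 (SD, n = 3) and 4.48 ± 1.03 (SD, n = 3). FABP1, a fatty acid carrier of enterocytes, was listed at 0 in 5 of the 6 libraries. EZR (ezrin), which also links membranes to actin outside the intestine, was by contrast at 202 ± 7.68 (SD, n = 3) and 199 ± 7.31 (SD, n = 3). The goblet mucin MUC2 was no higher than 0.021 in any control library, the endocrine marker CHGA no higher than 0.061 and the stem marker OLFM4 no higher than 0.02.

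Other list members were present in both controls. Of 28 enterocyte and brush border genes 10 reached 1 in all 6 libraries and 13 were under 1 in all 6. EPS8, an actin regulator also found outside the intestine, averaged 76.8 in Lv3NC and 88.1 in Lv20NC, and PLS1, an actin bundler of microvilli, 34.7 and 38.9. DPP4, a brush border peptidase, averaged 16.8 and 26.0. Of 8 tuft cell markers 4 reached 1 in all 6 libraries, with SH2D6 at 50.7 and 42.9 and the actin-binding AVIL at 8.07 and 10.6. The Paneth list had 3 genes in both tables, of which the protease MMP7 averaged 33.7 and 29.6. Of 11 endocrine markers 10 were under 1 in all 6 libraries, and the other, SCG5, averaged 7.31 and 10.95. Of 8 goblet markers 5 were under 1 in all 6. Of 16 stem and crypt markers 8 reached 1 in all 6 libraries, among them CLU (clusterin) at 130 and 165 and BMI1, a chromatin repressor, at 27.3 and 23.7. CDX2, the intestinal homeobox regulator, reached at most 0.068, whereas HNF4A, a regulator of enterocyte genes, averaged 11.6 in Lv3NC and 9.11 in Lv20NC. Beside the label of an intestinal epithelial line, then, epithelial genes and HNF4A were clearly present, CDX2, MUC2, CHGA and OLFM4 were near 0, and the lineage lists held members of both kinds. In bulk RNA, fewer cells of a type and less RNA per cell cannot be told apart.

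Mesenchymal genes were mixed. Most blood and vessel markers were under 1 in all 6 libraries, with AIF1 and CDH5 the highest of them. VIM (vimentin), an intermediate filament common in cultured epithelial lines, was at 1447 ± 211 (SD, n = 3) in Lv3NC and 1532 ± 79.7 (SD, n = 3) in Lv20NC. FN1 (fibronectin) was at 1430 ± 253 (SD, n = 3) and 2195 ± 286 (SD, n = 3). SPARC averaged 160.5 and 158.5, TAGLN 125.5 and 199.3, SNAI1 17.88 and 19.45 and the collagen gene COL1A1 4.35 and 1.84. By contrast PDGFRA, a fibroblast receptor, was at most 0.01, and the collagen gene COL1A2 at most 0.819. Of 20 mesenchymal genes 9 reached 1 in all 6 libraries and 10 were under 1 in all 6. Of 10 tested 1 differed 2-fold without overlap, CDH2 at 2.97 and 0.871, beside 4.20% of all genes tested. Of the leukocyte markers CD3E was at most 0.855, CD79A at most 0.189 and CD14 at 1.35 and 1.27 on average, while AIF1 was at 12.8 and 23.4. CDH5, the endothelial cadherin, averaged 9.64 in Lv3NC and 4.47 in Lv20NC. The summed level of 17 leukocyte genes ran from 22.9 to 25.7 in Lv3NC and from 32.3 to 36.0 in Lv20NC. Of these genes 12 of the 17 were under 1 in all 6 libraries, and CD2 and CD163 were listed at 0 throughout. Sums over 7 endothelial genes ran from 11.8 to 14.1 in Lv3NC and were at most 7.09 in Lv20NC.

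**Figure D1:**
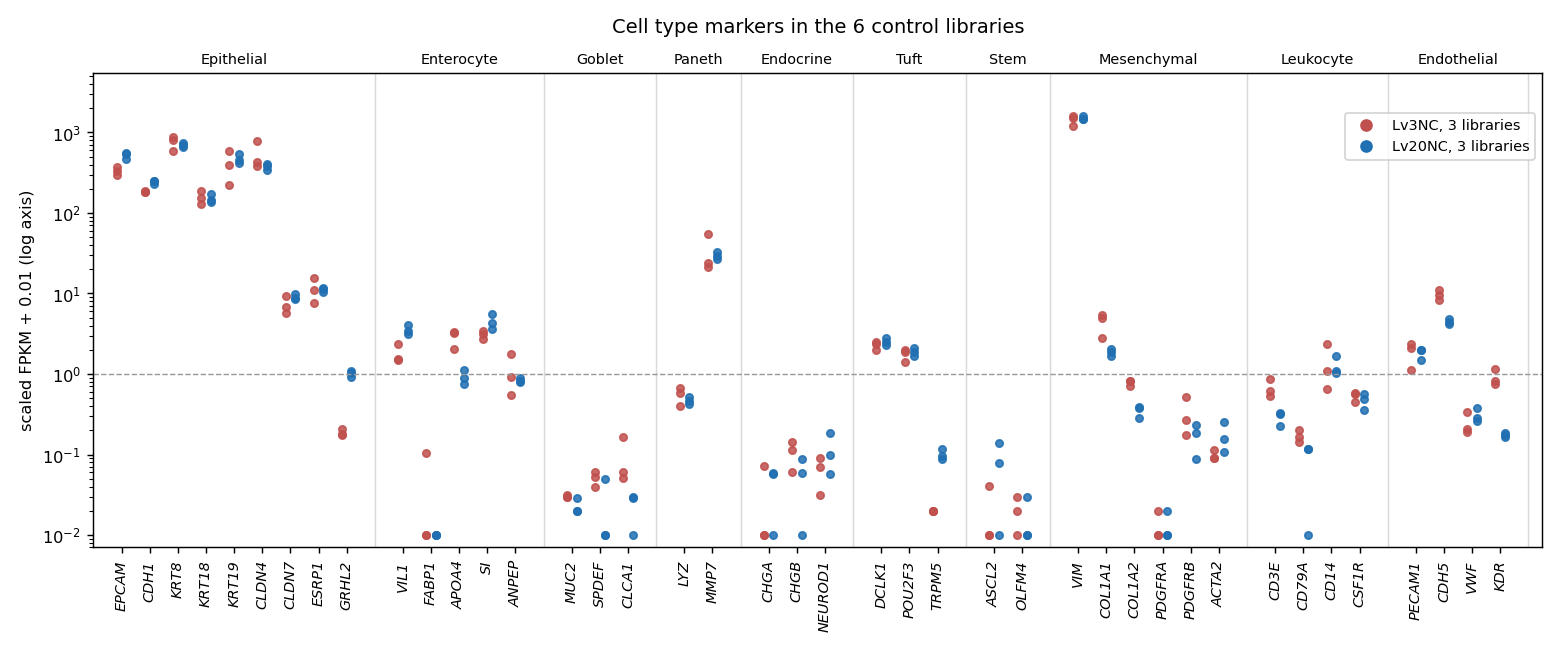
Scaled FPKM plus 0.01 on a log axis for cell type markers in the 3 Lv3NC (red) and 3 Lv20NC (blue) libraries, each point 1 library, with a dashed line at 1 scaled FPKM. Epithelial keratins, EPCAM, CDH1 and VIM stand above 100 in every library, and the goblet, endocrine and stem markers plotted lie below 1.

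The tight junction genes CLDN1 and OCLN overlapped between the controls. CLDN1 averaged 403 ± 105 (SD, n = 3) in Lv3NC and 327 ± 25.6 (SD, n = 3) in Lv20NC, and OCLN (occludin) 85.4 ± 20.9 (SD, n = 3) and 71.2 ± 0.774 (SD, n = 3). Of 29 junction genes tested 2 differed 2-fold without overlap (6.9%), a share near the 4.20% of all genes tested. The claudin CLDN3 was higher in Lv3NC, at a mean of 6.56 against 0.837 in Lv20NC, so its lower control was near the filter of 1. The catenin CTNND1 was higher in Lv20NC, at 8.60 in Lv3NC and 27.6 in Lv20NC. SLC2A1, the general glucose carrier, was at 99.8 ± 28.6 (SD, n = 3) and 78.4 ± 5.15 (SD, n = 3). The bacterial sensors TLR4 and TLR5 were at most 0.236 and 0.019, while LY96, the co-receptor of TLR4, averaged 30.0 and 53.6. TLR3, which senses double-stranded RNA, was at 22.2, 23.8 and 16.1 in Lv3NC and at 9.13, 4.85 and 11.6 in Lv20NC, without overlap.

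Between the controls most genes lay close together, and libraries of one control lay closer still. Pearson correlations of log2(scaled FPKM + 1) across genes were 0.965 to 0.985 within Lv3NC, 0.992 to 0.996 within Lv20NC and 0.940 to 0.953 between them, given as a description since genes are not independent. Of 11504 genes with at least 1 scaled FPKM in at least 3 of the 6 libraries, 86.5% had group means within 1.5-fold and 95.8% within 2-fold. A gene was counted as different where all 3 libraries of one control lay above all 3 of the other and the means differed at least 2-fold on the log2(scaled FPKM + 1) scale. This held for 483 genes (4.20%), of which 197 (1.71%) were higher in Lv3NC and 286 (2.49%) higher in Lv20NC. Lack of overlap alone was common, at 4663 genes or 40.5%, split into 20.2% higher in Lv3NC and 20.3% higher in Lv20NC. The split by direction moved when a library was left out, but the filter of 3 libraries was kept. A gene under 1 throughout one control then fails it once a library of the other control is left out. This holds for 68 counted genes under 1 in all 3 Lv3NC libraries and 65 under 1 in all 3 Lv20NC libraries. How far the filter alone moved the split was not tested. Without Lv3NC replicate 3 the counted genes numbered 432, with 129 higher in Lv3NC and 303 higher in Lv20NC. Without Lv20NC replicate 1, 2 or 3 it was nearly even, at 206 and 221, 211 and 225, and 193 and 213.

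**Figure D2:**
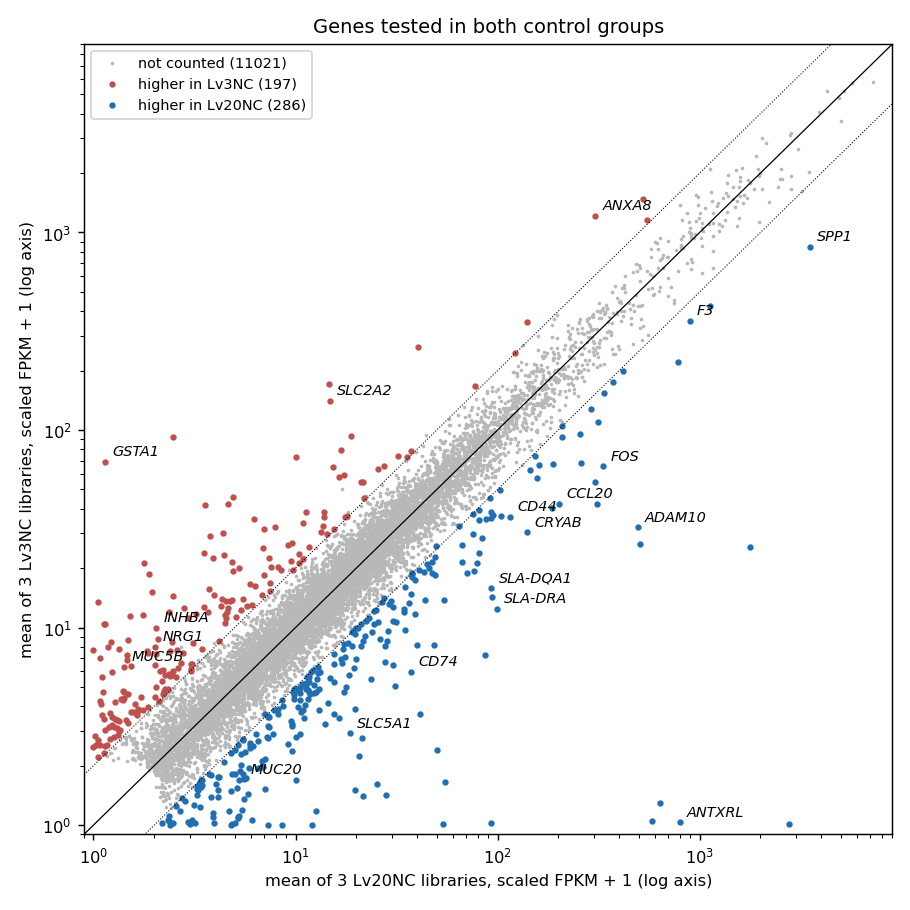
Mean scaled FPKM plus 1 of the 3 Lv20NC libraries against that of the 3 Lv3NC libraries, both axes on a log scale, for the 11504 genes tested. The solid line marks equal means and the dotted lines 2-fold, and the 197 genes counted higher in Lv3NC (red) and 286 counted higher in Lv20NC (blue) lie at or beyond the dotted lines.

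In most counted genes the treated libraries lay with the control of their table. For 434 of the 483 (89.9%), all 9 libraries of the knockdown table lay on one side of all 6 libraries of the overexpression table. These 434 were 3.77% of all genes tested. The remaining 49 genes overlapped once the treated libraries were included. The 483 had been chosen for lack of overlap of the control libraries, so part of this share was set by the count rule. The share without overlap of the 9 and 6 libraries among genes not counted is not given here. Counted genes made up 6.50% of genes with a mean under 5, 3.56% from 5 to 20, 2.80% from 20 to 100 and 5.04% at 100 or more. Among genes at 100 or more, 7 were higher in Lv3NC and 30 higher in Lv20NC. In 68 counted genes all 3 Lv3NC libraries were under 1, and in 65 all 3 Lv20NC libraries were. Such genes passed the filter only through the higher control and had to differ.

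MHC class II genes were the group furthest apart. These genes encode the molecules that present peptides to CD4+ T cells, along with the invariant chain CD74 and the peptide-loading factors. Of 9 members tested 8 were counted higher in Lv20NC, beside 2.49% of all genes, and none was counted higher in Lv3NC. Their median log2 difference (Lv3NC minus Lv20NC) was -2.31, where the median of all genes tested was 0.003. The alpha chain SLA-DRA was at 10.7, 10.9 and 12.7 in Lv3NC and at 96.7, 94.5 and 103 in Lv20NC, a log2 difference of -2.99 ± 0.08 (SE, n = 3 and 3). The 2 groups were far apart and each was tight. SLA-DQA1 was at 13.9, 14.2 and 16.5 against 87.0, 95.8 and 93.8. CD74, which guards the peptide groove during transport, was at 4.55, 5.76 and 4.65 against 32.3, 38.4 and 37.9.

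SLA-DRB1, SLA-DQB1, SLA-DMA, SLA-DMB and SLA-DOA were likewise higher in every Lv20NC library, with log2 differences from -1.49 for SLA-DOA to -2.58 for SLA-DQB1. CIITA, the master activator of the class II promoters, did not reach 2-fold on this scale, at 1.34, 0.713 and 1.08 against 2.68, 2.63 and 2.89, although its groups did not overlap. SLA-DOB was below the filter in both. The treated libraries sat with the control of their table, since SLA-DRA averaged 9.38 in Lv133KD, 11.6 in Lv143KD and 120 in OV143. In limma, Lv20NC and OV143 gave an adjusted p of 0.54 for SLA-DRA. This does not show equal levels, since without a replicate block that comparison called none of 11506 genes. With the block it called none of 9 class II genes, beside 1.94% of all genes. CD3E and CD79A, markers of lymphocytes, were under 1 in all 6 libraries. Of 5 leukocyte genes tested AIF1 and CD68 were also higher in Lv20NC without overlap, beside 20.3% of all genes, and 3 overlapped. CD68 averaged 2.5 in Lv3NC and 3.39 in Lv20NC. The part of these genes was not tested. All 7 SLA class II genes counted lie on chromosome 7 between 24825037 and 25182665 (Sscrofa11.1), and CD74 lies on chromosome 2.

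**Figure D3:**
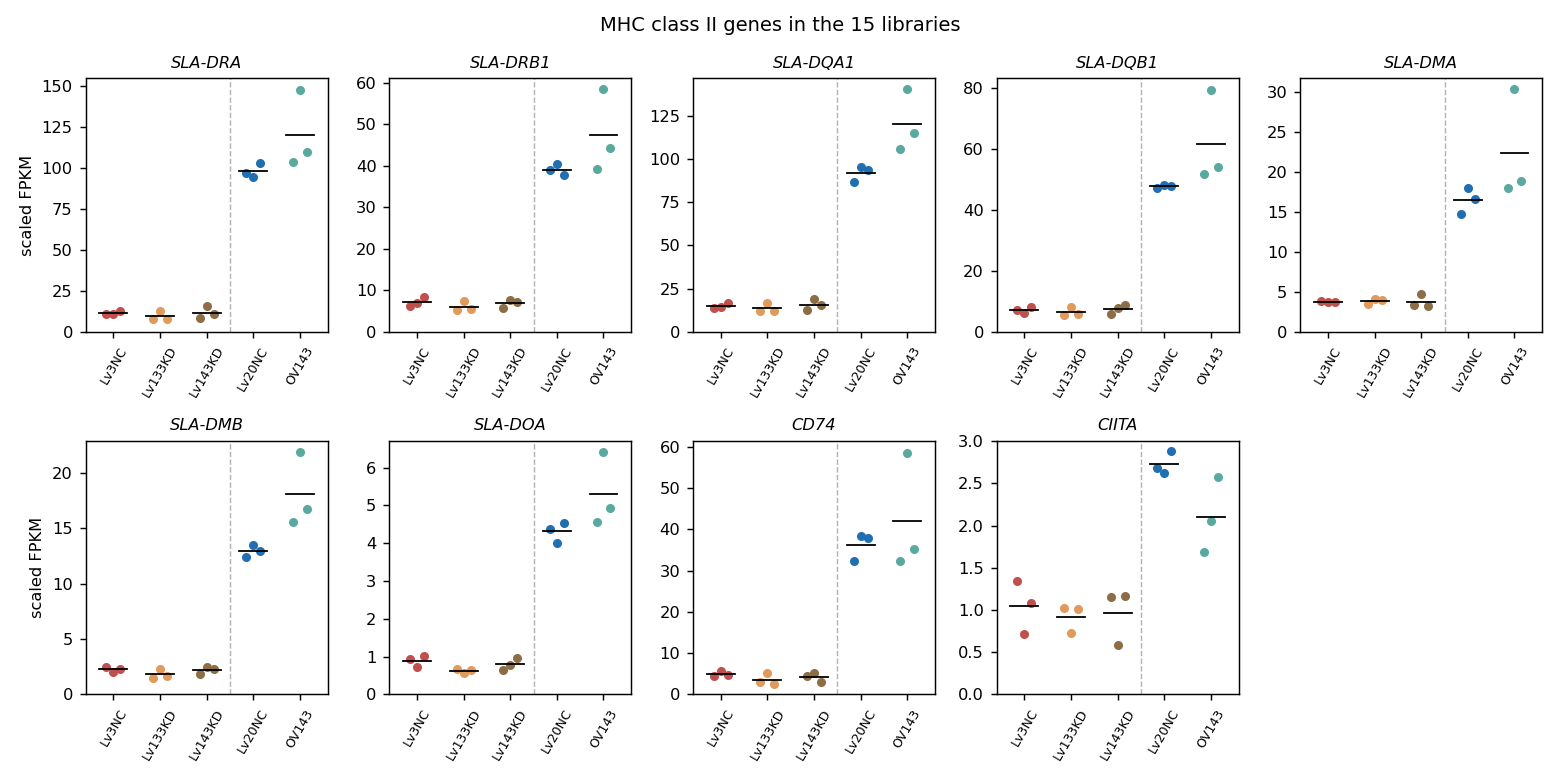
Scaled FPKM of MHC class II genes, CD74 and the activator CIITA in all 15 libraries, each point 1 library and each black bar a group mean, with a dashed line between the 2 tables. In each panel the 6 libraries of the overexpression table lie above the 9 of the knockdown table.

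MHC class I genes gave few counted members. Of 19 members tested, 2 were counted higher in Lv20NC and 1 higher in Lv3NC, beside 2.49% and 1.71% of all genes, and the median log2 difference was -0.04. The 3 counted members are of genes with near-identical copies. The light chain gene B2M has 2 entries on chromosome 1. One was at 18.9, 18.1 and 39.9 in Lv3NC and at 443, 533 and 542 in Lv20NC. The other went the opposite way, at 1294, 1389 and 1725 against 518, 528 and 524, so the split between the B2M copies is uncertain. SLA-1, a class I heavy chain, averaged 66.4 ± 11.2 (SD, n = 3) and 187 ± 16.6 (SD, n = 3), while its overlapping neighbour LOC100513601 averaged 262 and 39.3. NLRC5, the class I activator, was not counted, at 2.05 ± 0.301 (SD, n = 3) and 1.34 ± 0.0868 (SD, n = 3).

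Chemokines and mucosal defence genes leaned the same way as MHC class II. Of 10 chemokines tested 4 were counted higher in Lv20NC and none higher in Lv3NC, beside 2.49% and 1.71% of all genes, with a median log2 difference of -0.67. CCL20, which draws CCR6-bearing lymphocytes to the epithelium, was at 40.7, 17.5 and 65.8 in Lv3NC and at 194, 211 and 196 in Lv20NC. CCL5, a T cell attractant, was at 16.5, 13.6 and 23.9 against 41.1, 48.6 and 37.1. CXCL8, the neutrophil attractant, overlapped, at 57.9, 21.1 and 29.6 against 30.6, 31.0 and 27.4, so the direction was not shared by every chemokine. CCL2 went the opposite way without overlap, though under 2-fold, with means of 2.74 in Lv3NC and 1.39 in Lv20NC. CX3CL1 and CXCL14 were counted at lower levels, with log2 differences of -1.20 and -1.25. CXCL14 was under 1 in all 3 Lv3NC libraries, so it passed the filter only through Lv20NC.

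Of 8 antimicrobial and mucosal defence genes tested 4 were counted higher in Lv20NC and 1 higher in Lv3NC, beside 2.49% and 1.71% of all genes, with a median log2 difference of -0.77. The count rests in part on low genes, since DEFB1 and PIGR each reached 1 in only 1 Lv3NC library and DUOX1 in no Lv20NC library. S100A12, a calcium-binding alarmin, was at 38.4, 84.4 and 79.2 in Lv3NC and at 250.1, 278 and 248 in Lv20NC. The related S100A8 averaged 13.1 ± 5.80 (SD, n = 3) and 26.5 ± 5.75 (SD, n = 3). PIGR, the receptor that carries IgA across the epithelium, was low, at 0.804 ± 0.193 (SD, n = 3) and 2.73 ± 0.240 (SD, n = 3). DUOX1, which makes hydrogen peroxide at the surface, was the exception, at 2.42 ± 0.612 (SD, n = 3) in Lv3NC and 0.447 ± 0.120 (SD, n = 3) in Lv20NC.

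Interferon-stimulated genes respond to viral nucleic acid. Of 34 tested, 1 was counted higher in each control, a share of 5.88% that is near the 4.20% of all genes, and the median log2 difference was -0.04. OAS1, an RNA-sensing synthetase, was at 16.3, 8.96 and 9.94 in Lv3NC and at 2.37, 2.83 and 2.38 in Lv20NC. XAF1 was listed at 0 in 2 Lv3NC libraries and at 0.806 in the other, against 2.08, 2.10 and 2.25 in Lv20NC, through which alone it passed the filter. ISG15, a ubiquitin-like modifier, averaged 53.6 ± 5.46 (SD, n = 3) and 33.7 ± 3.90 (SD, n = 3), without overlap but under 2-fold. No member of 15 genes tested for silencing or restriction of retroviruses was counted, and none of 19 NF-kB and inflammatory cytokine genes.

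Several growth factor response genes were higher in Lv20NC. The immediate early genes are transcribed within minutes of growth factor or serum signals through MAP kinases, and the list holds their feedback inhibitors too. Of 29 tested 6 were counted higher in Lv20NC and none higher in Lv3NC, beside 2.49% and 1.71% of all genes, though the median log2 difference was only -0.28. FOS, a subunit of the AP-1 factor, was at 63.3, 54.3 and 75.8 in Lv3NC and at 359, 310 and 325 in Lv20NC. EGR3, a zinc finger factor, was at 0.866, 1.19 and 0.966 against 4.89, 4.05 and 4.17. FOSB, EGR2, the phosphatase DUSP7 and the inhibitor SPRY1 were the other 4. DUSP7 had 1 higher Lv3NC library, at 5.04, 1.41 and 1.47 against 42.9, 42.4 and 35.5. EGR1 was just short of 2-fold, at 108 ± 33.1 (SD, n = 3) and 207 ± 21.8 (SD, n = 3).

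Targets of YAP, the co-activator that reads cell shape and density, gave further members. CTGF, a matricellular protein, averaged 174 ± 18.1 (SD, n = 3) in Lv3NC and 371 ± 22.7 (SD, n = 3) in Lv20NC. F3 (tissue factor), which starts coagulation, was at 352, 520.4 and 196 against 912, 955 and 808. The lowest value of F3 was that of Lv3NC replicate 3. Of 20 YAP targets tested 3 were counted higher in Lv20NC, CTGF, F3 and the ankyrin repeat gene ANKRD1, beside 2.49% of all genes, and the median log2 difference was -0.07. Of the EGF family EREG (epiregulin) was at 90.3, 75.7 and 29.9 against 166, 156 and 157, while NRG1, a ligand of ERBB3, was higher in Lv3NC, at 9.24, 3.55 and 8.24 against 1.01, 1.08 and 0.962.

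Several of these genes also differed between Lv20NC and OV143 once replicates were blocked, in a comparison that shares the Lv20NC libraries with the one above. With limma on log2(FPKM + 1) and no replicate block no gene was called in that comparison (0.00%), where 1304 genes had an unadjusted p under 0.05. Replicate numbers were taken to pair the libraries, which the labels do not state. With replicates blocked 223 of 11506 genes were called (1.94%), 149 higher and 74 lower in Lv20NC. Of 29 immediate early and feedback genes 7 were then called, all higher in Lv20NC: FOS, FOSL1, EGR1, EGR3, DUSP5, KLF10 and PHLDA1. FOSL1 had a log2 difference (Lv20NC minus OV143) of 1.14 ± 0.11 (SE, n = 3 pairs; adjusted p = 0.0035 with the block in limma, 0.080 without). FOS had 0.54 (adjusted p = 0.034 with the block, 0.22 without), and its level in OV143, 230 ± 30.5 (SD, n = 3), still stood above all Lv3NC libraries. Of 20 YAP targets 5 were called higher in Lv20NC with the block, among them CTGF, F3 and ANKRD1.

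Chemokine and interferon genes differed there as well with the block. CCL20 was higher in Lv20NC than in OV143 (log2 difference 0.79, adjusted p = 0.0080 with the block in limma, 0.076 without), and CCL5 lower (-1.24, adjusted p = 0.0021 with the block, 0.12 without). Of 36 interferon-stimulated genes tested, 5 were lower in Lv20NC with the block and none was higher, namely IFI6, IFIT1, IFIT3, ISG15 and MX1. ISG15 averaged 122 ± 52.4 (SD, n = 3) in OV143. The OV143 replicate 2 library stood apart, with a deposited sum of 662022 FPKM, and without it 511 genes were called with no block, 361 higher and 150 lower in Lv20NC.

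**Figure D4:**
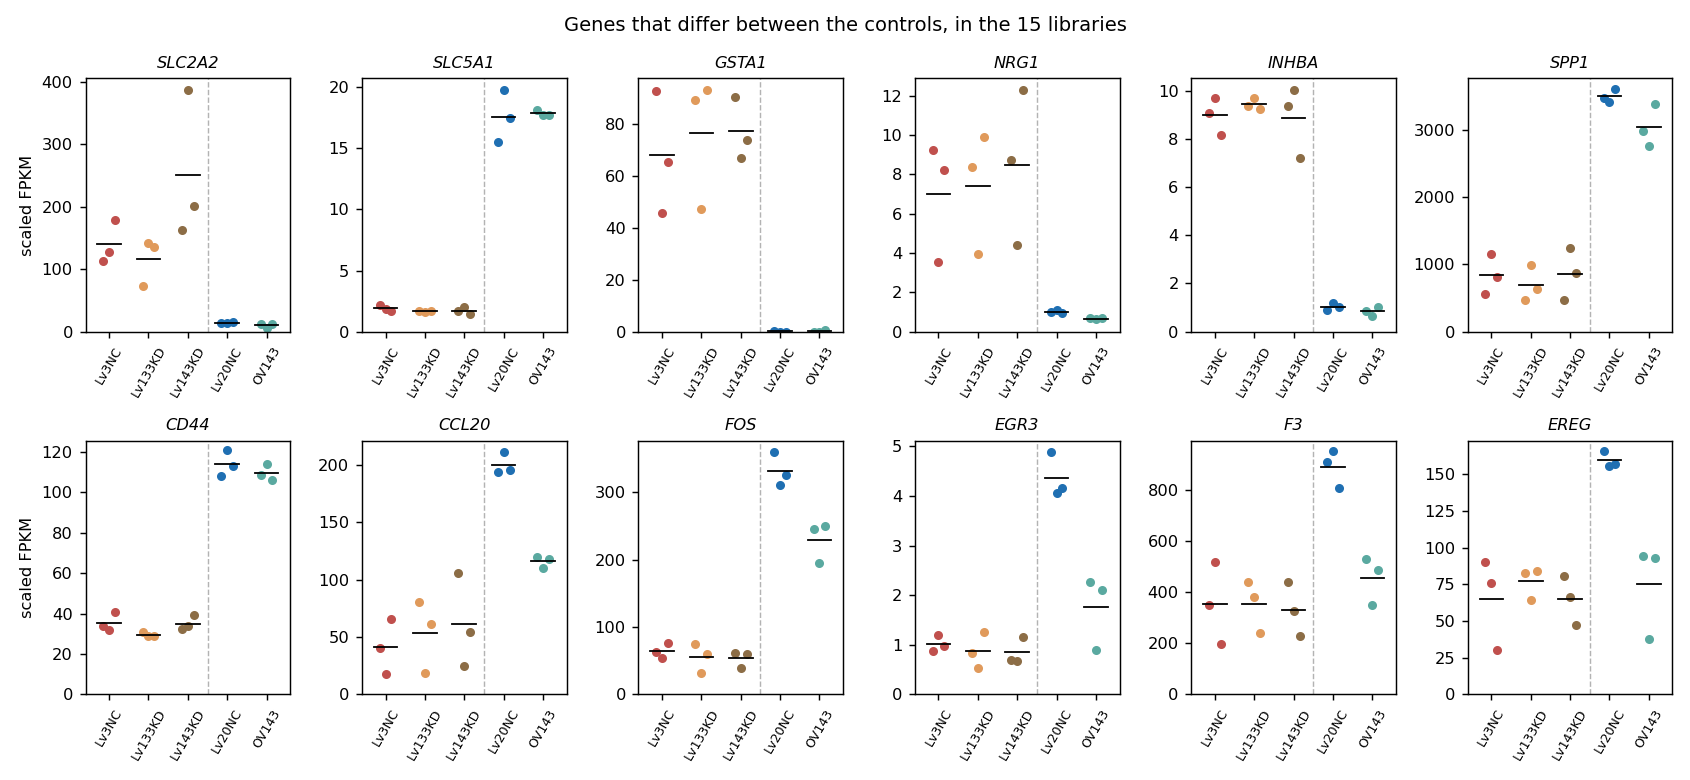
Scaled FPKM of 12 genes that differ between the controls, in all 15 libraries, each point 1 library and each black bar a group mean, with a dashed line between the 2 tables. SLC2A2, GSTA1, NRG1 and INHBA are high in the knockdown table, and the other 8 are high in Lv20NC, with FOS, EGR3, CCL20, F3 and EREG lower in OV143 than in Lv20NC.

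A pair of sugar carriers, of 9 tested, differed in opposite directions, beside 4.20% of all genes in either direction. SLC2A2, the facilitative carrier of the basolateral membrane (GLUT2), was at 113, 127 and 179 in Lv3NC and at 13.4, 13.4 and 14.6 in Lv20NC. SLC5A1, the sodium-coupled carrier of the brush border (SGLT1), was at 2.21, 1.84 and 1.69 against 15.5, 19.8 and 17.5. Each was tight within its table, except that SLC2A2 ranged from 163 to 386 in Lv143KD. None of the other 7 sugar carriers tested was counted. SLC12A2, the chloride uptake carrier of secreting cells, was at 10.6, 12.2 and 10.2 in Lv3NC and at 3.56, 2.98 and 4.27 in Lv20NC.

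Several mucins were detected mainly in 1 control. Of 5 tested 3 were counted, beside 4.20% of all genes, but each of the 3 was under 1 in every library of the lower control and so passed the filter only through the higher one and had to differ. The secreted MUC5B was at 4.95, 5.68 and 5.36 in Lv3NC and at 0.377, 0.475 and 0.412 in Lv20NC. The membrane mucin MUC13 went the same way, at 3.62 ± 0.502 (SD, n = 3) and 0.479 ± 0.173 (SD, n = 3). MUC20 went the opposite way, at 0.703 ± 0.121 (SD, n = 3) and 4.54 ± 0.301 (SD, n = 3). MUC4, the most abundant mucin at 65.8 and 131, was without overlap but just under the 2-fold limit, with a log2 difference of -0.99.

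Several genes of detoxification, adhesion and signalling stood out singly. GSTA1, a glutathione transferase, was at 92.6, 45.9 and 65.5 in Lv3NC and at 0.425 and listed at 0 in the other 2 libraries of Lv20NC. It passed the filter only through Lv3NC. The same table split held in the treated groups, with means of 76.5 in Lv133KD, 77.2 in Lv143KD and 0.148 in OV143. SPP1, a secreted integrin ligand, was at 567, 1151 and 815 in Lv3NC and at 3482, 3417 and 3612 in Lv20NC, the log2 difference being -2.11 ± 0.30 (SE, n = 3 and 3). CD44, the hyaluronan receptor, averaged 35.4 ± 4.59 (SD, n = 3) and 114 ± 6.48 (SD, n = 3).

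NFE2L2 (NRF2), the regulator of antioxidant genes, averaged 18.4 ± 4.61 (SD, n = 3) and 75.0 ± 2.27 (SD, n = 3), yet of 22 NRF2 targets and ferritin genes tested it was the only one counted. ATF4, the regulator of the amino acid response, averaged 199 ± 14.9 (SD, n = 3) and 419 ± 21.2 (SD, n = 3), and it too was the only counted member of its list of 26. INHBA, a subunit of activin, was at 9.07, 9.69 and 8.14 in Lv3NC and at 0.908, 1.19 and 1.02 in Lv20NC. KRT5, a basal keratin, was at 4.19, 3.88 and 3.28 against 0.918, 0.029 and 0.275, so it passed the filter only through Lv3NC. Of 20 HOX genes, which keep positional identity, HOXB8 and HOXA9 were counted higher in Lv3NC and HOXD8 and HOXA5 higher in Lv20NC. The share of all genes was 4.20% in either direction. HOXA5 averaged 0.245 in Lv3NC and 1.57 in Lv20NC and passed the filter only through Lv20NC.

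Many of the largest single differences lay outside the gene lists. ANTXRL was at most 0.061 in Lv3NC and at 779, 881 and 723 in Lv20NC. SLC26A7, KCNIP4 and ITGB1BP2 were at most 0.315 in any Lv3NC library and averaged 580.2, 635 and 92.0 in Lv20NC. In the other direction ABHD12B averaged 12.4 and 0.0551, NDUFAF8 17.7 and 0.887, and MBP 9.36 and 0.146 in Lv3NC and Lv20NC. ANTXRL, SLC26A7, KCNIP4 and ITGB1BP2 passed the filter only through Lv20NC, and ABHD12B and MBP only through Lv3NC. ADAM10, a sheddase of membrane ligands, averaged 31.2 ± 2.70 (SD, n = 3) and 493 ± 52.1 (SD, n = 3), and the means of OV143, Lv133KD and Lv143KD were 593, 34.5 and 33.6.

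Some of these genes lie beside a counted gene that went the opposite way. There were 11 such pairs with at most 10 kb between them, and neighbours that went the same way were not counted. ANXA8, a membrane-binding annexin, averaged 1215 ± 42.9 (SD, n = 3) in Lv3NC and 303 ± 19.6 (SD, n = 3) in Lv20NC, and it lies on chromosome 14 from 88319209 to 88340716, with ANTXRL from 88342134 to 88380019, a gap of 1417 bases (Sscrofa11.1). The kinase gene RPS6KB1 averaged 78.1 and 15.7 and its neighbour TUBD1, 277 bases away, 6.25 and 85.9. The apoptosis gene BAX averaged 57.9 and 16.4 and its neighbour DHDH 0.653 and 54.1. IFNAR2, a chain of the type I interferon receptor, averaged 15.6 and 4.97 and its neighbour IL10RB was at 3.53, 4.31 and 5.96 against 12.3, 9.69 and 9.97. The actin regulator ARPC5L averaged 44.7 and 3.89 and its neighbour WDR38 0.614 and 24.3. The span of a counted gene overlapped that of another gene in 41.2% of cases, against 35.1% of all genes tested. Whether reads at such loci were given to different genes in the 2 tables was not tested, and strand use is not given in the sources used here.

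Several growth and metabolism lists held few counted genes, with shares near or below the 4.20% of all genes. The housekeeping list was above that share, with 1 of 20 genes counted in each direction. Heat shock genes and p53 targets were above it too, with 1 of 18 and 1 of 24 counted in each direction. Of 72 ribosomal protein genes 1 was counted in each direction, of 31 cholesterol and fatty acid synthesis genes none, of 24 chaperones and other unfolded protein response genes none, and of 16 microRNA pathway genes none. Of 40 glycolysis and hypoxia genes 1 was counted in each direction. The G2/M genes showed a small shift, with no member counted but 27 of 40 higher in Lv3NC without overlap, beside 20.2% of all genes, and a median log2 difference of 0.47. PLK1, a mitotic kinase, was at 19.3, 25.6 and 29.6 in Lv3NC and at 14.1, 13.6 and 12.9 in Lv20NC. CCNB1 (cyclin B1) was at 112, 108 and 169 against 73.3, 73.7 and 73.1. G1/S genes did not share this shift, with 2 of 43 higher in Lv3NC without overlap and 9 higher in Lv20NC.

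Lv3NC libraries varied more among themselves than Lv20NC libraries. The median SD of log2(scaled FPKM + 1) was 0.193 in Lv3NC and 0.104 in Lv20NC, and the SD was larger in Lv3NC for 75.1% of genes tested. A 2-fold range among the 3 libraries was found for 588 genes in Lv3NC (5.11%) and 12 in Lv20NC (0.104%). Replicates 2 and 3 held most of the extremes over all genes. Of the 588 genes 312 were highest in replicate 2 and 217 in replicate 3. The lowest library was replicate 3 for 310 and replicate 2 for 233. Stress and replication genes were among the 588. Of 26 ATF4 and amino acid response genes 15 had a 2-fold range in Lv3NC and none had one in Lv20NC, and 14 of the 15 were lowest in replicate 2. ASNS, the asparagine synthetase induced on amino acid shortage, was at 443, 174 and 523 in Lv3NC and at 201, 217 and 166 in Lv20NC. Of 24 unfolded protein response genes 7 had a 2-fold range in Lv3NC, all 7 highest in replicate 3 and lowest in replicate 2. HSPA5 (BiP), the main chaperone of the endoplasmic reticulum, was at 398, 202 and 1375 against 475, 479 and 568. HERPUD1, a gene of protein degradation at the endoplasmic reticulum, was at 31.7, 21.6 and 142.

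DNA replication went with replicate 2. Of 43 G1/S genes 15 had a 2-fold range in Lv3NC, all 15 highest in replicate 2 and lowest in replicate 3, and none had one in Lv20NC. PCNA, the sliding clamp of DNA polymerase, was at 106, 160 and 57.4 in Lv3NC and at 138, 147 and 155 in Lv20NC. MCM5, a subunit of the replicative helicase, was at 11.5, 25.2 and 6.13 against 13.4, 13.8 and 13.3. The same replicate order was seen in Lv143KD, where MCM5 was at 17.2, 23.5 and 4.90 and HSPA5 at 341, 270 and 921. In Lv133KD the order of these genes was the same but the range was narrower, with MCM5 at 18.4, 25.7 and 14.6 and HSPA5 at 353, 248 and 442. TXNIP, an inhibitor of thioredoxin, was highest in replicate 3 of Lv3NC, at 249, 95.4 and 742, but not of Lv133KD, at 201, 52.5 and 191. Of 40 glycolysis and hypoxia genes 6, among them BNIP3 and ADM, had a 2-fold range in Lv3NC. All 6 were highest in replicate 2, beside 312 of all 588 genes with such a range.

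**Figure D5:**
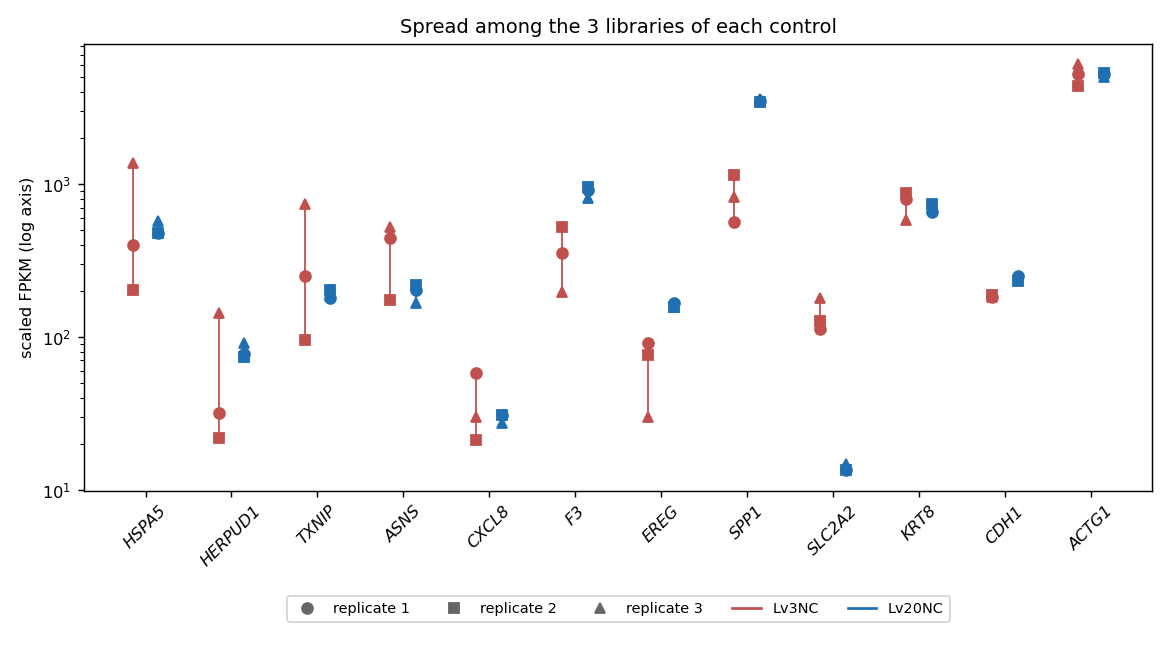
Scaled FPKM on a log axis of 12 genes in the 3 Lv3NC (red) and 3 Lv20NC (blue) libraries, with marker shape for the replicate number and a line from the lowest to the highest library. HSPA5, HERPUD1 and TXNIP spread over more than 2-fold in Lv3NC with replicate 3 highest, while CDH1 is close in both controls.

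Within the knockdown table few genes set Lv3NC apart from the knockdown groups. With limma, 4 of 11645 genes were called (0.0343%), all lower in Lv3NC: FOPNL, ATP6V1H, AACS and WIF1. FOPNL was at 3.40, 4.63 and 4.43 in Lv3NC and averaged 10.7 in Lv133KD, the log2 difference from both knockdown groups being -1.21 ± 0.11 (SE; adjusted p = 0.0099 in limma). It averaged 9.99 ± 0.388 (SD, n = 3) in Lv20NC, so Lv3NC, which enters both comparisons, was the low group of the series for this gene. ATP6V1H, a subunit of the proton pump of acid vesicles, averaged 27.5 in Lv3NC, 46.5 and 47.8 in the knockdown groups and 40.0 in Lv20NC. WIF1, a secreted Wnt inhibitor, averaged 2.94 in Lv3NC, 7.29 and 7.33 in the knockdown groups and 5.74 in Lv20NC. AACS, which activates acetoacetate for lipid synthesis, averaged 4.05 in Lv3NC, 9.73 and 9.15 in the knockdown groups, and was at 9.11, 8.33 and 9.55 in Lv20NC.

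With a replicate block, limma called 53 genes (0.455%), 6 higher and 47 lower in Lv3NC. Of 17 microRNA pathway genes 2 were among those lower in Lv3NC. XPO5, the exporter of microRNA precursors, had a log2 difference of -0.71 (adjusted p = 0.0041 with the block in limma, 0.15 without). AGO4, an Argonaute protein, had -0.42 (adjusted p = 0.042 with the block, 0.24 without). None of the 4 calls without the block was left when Lv133KD replicate 1, Lv133KD replicate 3, Lv143KD replicate 1, Lv3NC replicate 1 or Lv3NC replicate 3 was omitted, and 1 or 2 calls were left without Lv133KD replicate 2, Lv143KD replicate 2 or Lv143KD replicate 3.

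Some genes have a row in only 1 table and no value in the other control. The knockdown table alone lists 2196 genes, of which 50 average at least 10 FPKM in Lv3NC, and these genes hold 3.62% to 3.98% of the FPKM in an Lv3NC library. The overexpression table alone lists 197, of which 29 average at least 10 FPKM in Lv20NC, and they hold 0.858% to 0.930%. KRT7, a simple epithelial keratin, is listed in the overexpression table only, at 57.4 ± 6.50 deposited FPKM (SD, n = 3) in Lv20NC. POMP, a proteasome assembly factor, at 168 ± 9.26 (SD, n = 3), and HNRNPU, a nuclear RNA-binding protein, at 35.9 ± 0.562 (SD, n = 3), are listed there only as well. Of the 2196 genes of the knockdown table alone 382 are predicted genes, and only 2 of the 50 have an NCBI identifier. The highest, the predicted BGI_novel_G000004, was at 3667 ± 558 deposited FPKM (SD, n = 3) in Lv3NC. CNIH2, at 24.0 ± 7.07 deposited FPKM (SD, n = 3) in Lv3NC, is 1 of those 2. In the overexpression table alone 16 of the 29 have an NCBI identifier, and the predicted BGIG9823_26735 was highest, at 1158 ± 37.9 (SD, n = 3) in Lv20NC. None of these genes entered the comparison of the controls.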

How the data were processed

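RNA-seq of total RNA from IPEC-J2 cells was quantified by the authors as FPKM, per the file headers, and deposited as one table of 9 and another of 6 libraries, rounded to 2 decimals. Sscrofa11.1 is the build in the submitters' processing notes. For the aligner, counting tool, annotation and strand, the sources used here give nothing. All 16804 joined identifiers had a symbol in the RefSeq table of the same build.

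Libraries were grouped by their titles. The 6 control libraries were scaled by median of ratios, and log2(scaled FPKM + 1) was compared over genes of at least 1 scaled FPKM in at least 3 libraries, with Python 3.11.15, numpy 2.4.6 and pandas 2.3.3. Figures were drawn with matplotlib 3.10.9. Within each table limma 3.58.1 in R 4.3.3 tested log2(FPKM + 1) with a trended prior and Benjamini-Hochberg adjustment, called under 0.05. The scripts were tested on simulated data. Precision is limited by 3 libraries a group and by an unknown depth.

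Libraries of the same number tended to deviate together, with correlations from 0.28 to 0.86 among the knockdown libraries with Lv3NC and from 0.22 to 0.72 between Lv20NC and OV143. Libraries of different number ranged from -0.87 to 0.38 and from -0.68 to 0.54, so the ranges overlapped. The numbers were taken to pair the libraries within each table from these same values, as the labels state no pairing. The block is an alternative to the design chosen.

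The genes described are the 25 most abundant, the 15 counted genes with the largest fold each way, the highest and the counted members of each list, markers at 0, the 10 with the largest spread in each control, and up to 10 listed in 1 table only. Further members of the lists, the genes called by limma and the neighbouring pairs were named after their values were seen. The members and lists were chosen with earlier results of these data known. The 59 lists hold 1330 symbols, matched exactly, of which the lists without a counted member are given by count. Alternatives were other scalings, pseudocounts, filters and fold limits, and leaving out each library.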

Additional observations from a re-analysis of the deposited data

How the results depend on the processing

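The 483 genes counted between the controls became 500 without scaling, 481 with equal sums, 486 with factors from genes of at least 10 FPKM, 485 after quantile normalisation, 494 without the filter and 323 at a filter of 5 FPKM. They became 741 with a pseudocount of 0.1, 1493 at a fold limit of 1.5 and 109 at a limit of 4. Leaving out 1 control library gave 406 to 467, with the filter still at 3 libraries. The median shift of all genes across scalings was -0.06 to 0.032. Of 1911 recomputed gene differences 103 moved by over 1 SD, and of 702 recomputed list medians 9 moved. A change of sign was looked for in counted genes only, and none was found. These genes had been chosen as at least 2-fold apart, so a reversal was unlikely from the start.

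No paired analysis was possible for the 2 controls because they come from separate tables and no test was made across them. With the replicate block, 53 genes were called for Lv3NC and 223 for Lv20NC. Leaving out 1 library gave 0 to 4 calls for Lv3NC and 0 to 511 for Lv20NC, and scaling within the table gave 5 calls for Lv20NC. Where a group kept 2 libraries, the fit pooled their spread with that of the other libraries. A planned description of the fold by protein length was not run, as no protein table was used. FPKM without counts gives no sampling error for genes of low level.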
